A study of Mus musculus with 12 samples.

Results

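The genes described here are 33 genes of the unfolded protein response and of the folding machinery of the endoplasmic reticulum (ER). They were chosen by gene symbol, with earlier results of these data known. They matched 34 of the 54674 entries of the deposited expression matrix, because the stress factor gene Ddit3 is carried by 2 Ensembl identifiers. The data are bulk RNA sequencing of 12 mouse libraries in 4 groups of 3, labelled Ly6C or Ly6G and taken from spleen or from tumor. Ly6C and Ly6G are surface proteins of myeloid cells, and the study set out to compare monocytic (M-MDSC) and polymorphonuclear (PMN-MDSC) myeloid-derived suppressor cells, immature myeloid cells that accumulate in tumor-bearing animals. The labels name no strain, age, genotype, tumor line, sorting gate, pooling of animals or treatment, and do not say whether the spleens came from the tumor-bearing mice. They do not say that libraries of a group came from separate animals, so p-values measure the spread between these libraries, which may be technical.

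The ER is where secreted and membrane proteins enter the secretory pathway through the Sec61 translocon, are folded by chaperones, and gain sugar chains and disulfide bonds. When unfolded protein accumulates, the membrane sensors IRE1 (gene Ern1), PERK (Eif2ak3) and ATF6 are released from the chaperone BiP (Hspa5). IRE1 splices the mRNA of the factor XBP1, ATF6 is cleaved into a transcription factor, and PERK slows translation while favouring the factors ATF4 and CHOP (Ddit3). Their targets include the chaperones and ER-associated degradation (ERAD), which exports misfolded protein for destruction by the proteasome. Splicing of Xbp1, cleavage of ATF6 and phosphorylation are not seen in gene-level expression and were not analysed here.

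Values are FPKM (fragments per kilobase of gene, scaled to library depth). Changes are differences of log2(FPKM + 1) with the standard error of a limma model over all 12 libraries, and a change is said to have passed where p, after Benjamini-Hochberg adjustment over the 13610 genes tested, was under 0.05. Those genes reached 1 FPKM in at least 3 libraries, which 33 of the 34 entries did. Derl3, a rhomboid-like ERAD factor of secretory cells, stayed under 1 FPKM in all 12 libraries and was not tested. Fragment counts were not used, so no interval for counting error is given.

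The tissues differed in more than these genes. Summed over 20 pan-leukocyte genes, levels were 4200 to 4861 FPKM in Ly6C spleen and 5159 to 5313 in Ly6G spleen, against 183 to 366 in Ly6C tumor and 446 to 767 in Ly6G tumor, and 20 of 20 were lower in tumor under both labels. The keratin-positive cell list summed to at most 1.95 FPKM in any spleen library, 1353 to 1579 in Ly6C tumor and 789 to 1123 in Ly6G tumor. Of its 10 genes, 9 stayed under 1 FPKM in all 6 spleen libraries and 5 in all 12 libraries. The 3 tested (Krt8, Krt18 and Rhox5) met the expression filter through tumor, so their rise there is no separate result. Epcam was listed at 0 in all 3 Ly6C tumor libraries. Fibroblast genes summed to 1.89 to 6.53 FPKM in spleen and 138 to 365 in tumor. The neutrophil marker Ly6g was at 131 to 209 FPKM in Ly6C spleen, 591 to 717 in Ly6G spleen, 11.8 to 13.8 in Ly6C tumor and 31.5 to 54.1 in Ly6G tumor. The monocyte marker Ly6c2 overlapped between the labels in both tissues, at 223 to 272 and 169.5 to 237 FPKM in spleen and 6.35 to 8.16 and 5.31 to 7.80 in tumor (Ly6C before Ly6G). The part of these differences in the results that follow was not tested. In bulk RNA, fewer cells of a type and less RNA per cell cannot be told apart.

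Many genes of this response carry an ER stress response element (ERSE) close to the start of transcription. The ERSE is the sequence CCAAT, a spacer of 9 bases, and CCACG, where the factor NF-Y binds the first part and ATF6 the second. RefSeq promoter windows of the GRCm38.p6 build, from 250 bases before to 50 after the start, were found for 27 of the 33 genes. The element, searched on both strands, was in the windows of 9 of the 27 (33.3%), namely Hspa5, Hsp90b1, Dnajc3, Creld2, Calr, Canx, Pdia6, Syvn1 and Derl3, and in those of 0.137% of the 27025 symbols with a window. A match describes these letters and is not evidence of a working site. The stretches around the site are shown for the 5 genes of highest mean FPKM, which were also the 5 of 8 tested carriers that rose in tumor under both labels. Each is written along the gene strand, with the element in capitals, and where the element reads on the opposite strand the capitals begin with CGTGG and end with ATTGG.
Pdia6, chr12:17266471-17266529, + strand, element 98 to 80 bases before the start: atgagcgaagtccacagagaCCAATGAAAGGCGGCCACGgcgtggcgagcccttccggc
Calr, chr8:84847055-84847113, - strand, element 162 to 144 bases before the start, opposite strand: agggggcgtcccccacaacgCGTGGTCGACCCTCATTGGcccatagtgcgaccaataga
Hspa5, chr2:34772005-34772063, + strand, element 65 to 47 bases before the start: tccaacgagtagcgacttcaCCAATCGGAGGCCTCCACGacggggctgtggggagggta
Canx, chr11:50325780-50325838, - strand, element 145 to 127 bases before the start: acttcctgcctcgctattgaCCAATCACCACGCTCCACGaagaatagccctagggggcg
Creld2, chr15:88819500-88819558, + strand, element 126 to 108 bases before the start, opposite strand: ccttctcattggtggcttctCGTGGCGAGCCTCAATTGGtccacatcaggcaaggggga

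The window of Hsp90b1 held 2 elements, shown because its expression values, given further on, needed a closer look; it was chosen after its values were seen.
Hsp90b1 far element, chr10:86705618-86705676, - strand, 212 to 194 bases before the start: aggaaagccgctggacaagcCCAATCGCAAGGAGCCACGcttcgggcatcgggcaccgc
Hsp90b1 near element, chr10:86705513-86705571, - strand, 107 to 89 bases before the start, opposite strand: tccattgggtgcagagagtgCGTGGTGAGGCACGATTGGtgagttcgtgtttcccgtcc
The related ERSE-II (ATTGG, any base, CCACG) was in the windows of Dnajb11 and Herpud1, 7.41% of the 27 against 0.0444% of all symbols. The core of the XBP1 element (TGACGTGG) and the ATF4 element TGATGNAAT were in none of the 27 windows, against 0.714% and 1.08% of all symbols. No match says only that these letters are not in these windows.

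**Figure D1:**
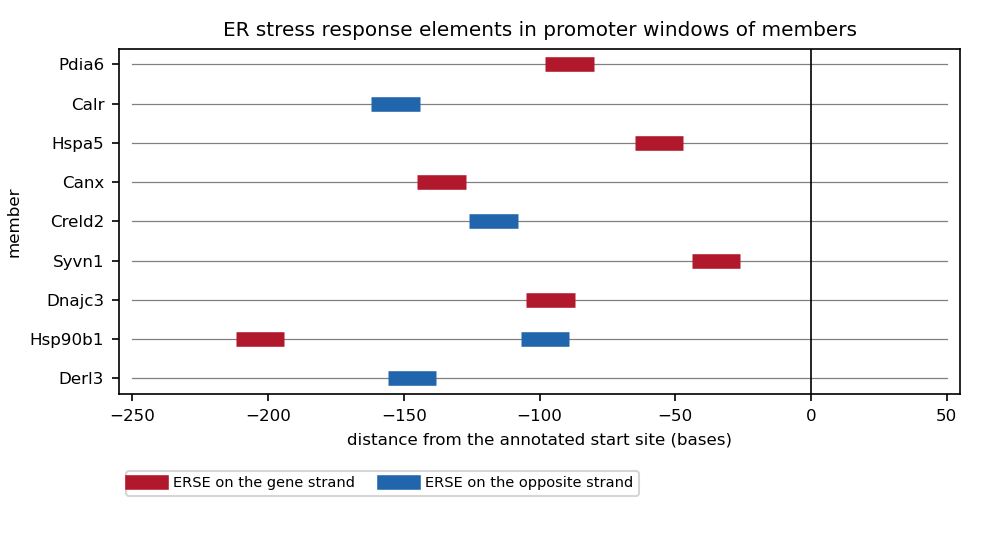
Position of each ERSE in the promoter windows of the 9 genes that hold one. The horizontal axis is distance from the annotated start in bases, grey lines are the windows, and colour gives the strand. The 10 elements lie between 212 and 26 bases before the start, 6 on the gene strand and 4 on the opposite strand.

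In Ly6C libraries, tumor against spleen, 14 of the 33 tested entries rose and 9 fell (42.4% and 27.3%), beside 46.2% and 30.5% of all genes tested. In Ly6G libraries 19 rose and 6 fell (57.6% and 18.2%), beside 51.5% and 24.7%. These shares are near the background, so the numbers of rises and falls do not set the genes as a whole apart. Of the 7 genes of glycoprotein folding and disulfide formation 6 rose and 0 fell in Ly6C, and 7 rose in Ly6G. Of the 6 tested ERAD genes 0 rose in either label, 6 fell in Ly6C and 4 fell in Ly6G.

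The median change of all genes tested was 0.27 in Ly6C and 0.43 in Ly6G, and that of the 33 entries 0.18 and 0.57. Median-of-ratios scaling moved the median of all genes to 0.03 and 0.01, and equal library sums (TPM scale) to 0.20 and 0.68. Under those scalings and quantile normalization the folding genes remained at 6 or more rises and 0 falls in both labels. The ERAD genes remained at 6 falls in Ly6C, and in Ly6G had 5 falls with median-of-ratios factors and 3 falls and 1 rise, that of Syvn1, on the TPM scale. Rescaling to the pan-leukocyte genes put all 33 entries higher in tumor under both labels, with a median of all genes of 2.81 in Ly6C and 2.03 in Ly6G. Of the 15219 genes tested then, 14188 were higher in Ly6C tumor and 13884 in Ly6G tumor. So a fall below is a fall relative to total RNA in the library, and a rise relative to the leukocyte genes.

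**Figure D2:**
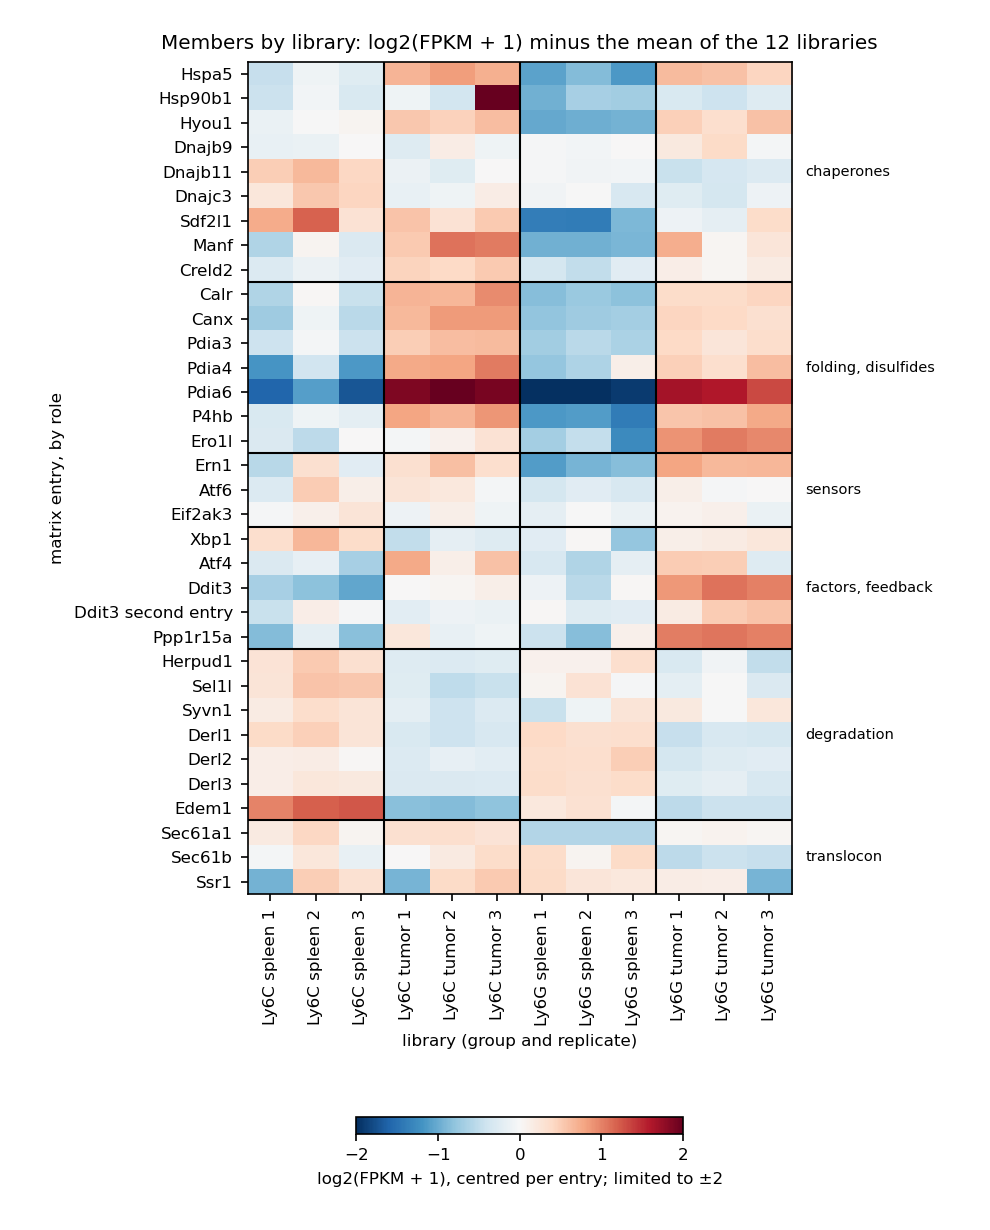
Values of the 34 entries (vertical axis, by role) in the 12 libraries (horizontal axis), as log2(FPKM + 1) minus the entry's mean over the libraries, with colours limited to ±2. Pdia6 is blue in all 6 spleen libraries and red in all 6 tumor libraries, Edem1 is the reverse in Ly6C, and Hsp90b1 is high in Ly6C tumor 3 alone.

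Pdia6, a protein disulfide isomerase that also damps IRE1, differed most. It was listed at 32.4, 46.0 and 29.6 FPKM in the Ly6C spleen libraries and 367, 414 and 375 in Ly6C tumor. In Ly6G it was at 23.5, 22.9 and 25.7 FPKM in spleen and 316, 305 and 251 in tumor. The lowest tumor value lay far above the highest spleen value under both labels, with ratios of means of 10.7 and 12.1. The limma changes were 3.41 ± 0.16 (adjusted p = 4.5e-09) and 3.54 ± 0.16 (adjusted p = 3.76e-09). Its last bases overlap those of Atp6v1c2, a proton pump subunit on the opposite strand that was listed at 0.0174 to 0.208 FPKM.

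P4hb, the founding protein disulfide isomerase and a subunit of collagen prolyl hydroxylase, was the most abundant of the set in Ly6C spleen. Its values were 115, 133 and 124 FPKM in Ly6C spleen against 245, 229 and 262 in tumor, and 63.6, 64.8 and 53.2 in Ly6G spleen against 208, 214 and 241. The Ly6C and Ly6G values overlapped in tumor and not in spleen. P4hb rose by 0.98 ± 0.12 in Ly6C (adjusted p = 1.6e-05) and 1.85 ± 0.12 in Ly6G (adjusted p = 7.98e-08) in limma.

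The lectin chaperones calreticulin and calnexin hold newly glycosylated proteins, and Pdia3 (ERp57) is the disulfide isomerase that works with them. Calr was at 62.5, 96.9 and 70.0 FPKM in Ly6C spleen, 153, 151 and 183 in Ly6C tumor, 52.3, 56.7 and 53.5 in Ly6G spleen and 123, 123 and 129 in Ly6G tumor. Canx was at 22.0, 34.6 and 25.1, then 57.9, 67.1 and 67.4, then 20.9, 22.1 and 22.4, and 49.7, 48.6 and 46.1 FPKM in the same order. Neither gene had a tumor library within the range of its spleen libraries. Their limma changes were 1.10 ± 0.15 and 1.19 ± 0.15 for Calr, and 1.23 ± 0.15 and 1.11 ± 0.15 for Canx, in Ly6C and Ly6G. Pdia3 rose from 76.1 ± 11.9 to 139.7 ± 7.16 FPKM in Ly6C and from 60.1 ± 3.47 to 117 ± 6.13 in Ly6G (SD, n = 3), which is 0.88 ± 0.12 and 0.95 ± 0.12. These 3 genes moved by like amounts under both labels, and their differences between labels did not pass (0.07 to 0.12 in size, with standard errors of 0.18 to 0.22).

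Pdia4 (ERp72), another disulfide isomerase, was at 13.4, 24.1 and 13.7 FPKM in Ly6C spleen against 54.5, 55.5 and 66.0 in tumor, and at 18.1, 20.4 and 34.3 in Ly6G spleen against 44.4, 40.2 and 49.0. It rose by 1.77 ± 0.25 and 0.90 ± 0.25, the latter not passing with median-of-ratios factors (0.40, limma adjusted p = 0.117). Ero1l, the oxidase that recharges the disulfide isomerases and a gene known to respond to low oxygen, followed another course. Its Ly6C values were 20.6, 17.3 and 25.6 FPKM in spleen and 24.7, 26.9 and 31.1 in tumor, which overlapped (0.38 ± 0.20, limma adjusted p = 0.102). In Ly6G it rose from 15.5, 17.9 and 9.84 to 48.1, 52.9 and 50.5 FPKM, a change of 1.78 ± 0.20 (limma adjusted p = 6.18e-06). Summed over the 7 genes, the level went from 378 ± 56.1 to 1083 ± 48.4 FPKM in Ly6C and from 259 ± 8.93 to 897 ± 13.6 in Ly6G (SD, n = 3).

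Among the luminal chaperones and their partners, 4 of 9 rose and 2 fell in Ly6C (44.4% and 22.2%, beside 46.2% and 30.5% of all genes), and 5 rose and 1 fell in Ly6G (55.6% and 11.1%, beside 51.5% and 24.7%). Hspa5 (BiP), the ER member of the Hsp70 family, was at 51.7, 67.7 and 60.2 FPKM in Ly6C spleen and 115, 128 and 118 in tumor, and at 33.4, 39.0 and 31.8 in Ly6G spleen and 112, 108 and 96.3 in tumor. All tumor libraries lay above all spleen libraries. The changes were 1.0 ± 0.13 (limma adjusted p = 1.9e-05) and 1.58 ± 0.13 (limma adjusted p = 4.41e-07). Hyou1 (Grp170), a nucleotide exchange factor of BiP, was at 9.08 to 10.5 and 14.2 to 16.0 FPKM in Ly6C spleen and tumor, and at 4.46 to 4.71 and 12.9 to 15.7 in Ly6G. It rose by 0.57 ± 0.10 and 1.45 ± 0.10. Manf, a secreted ER stress-inducible factor, rose by 1.16 ± 0.21 and 1.28 ± 0.21, and Creld2, a stress-inducible ER protein, by 0.66 ± 0.10 and 0.47 ± 0.10. Creld2 was not higher in Ly6G tumor with median-of-ratios factors (-0.02). Manf overlaps the coding genes Rbm15b, which lies inside it on its own strand, and Dcaf1 on the other. Rbm15b was listed at 9.64 to 12.7 FPKM in Ly6C spleen, 10.9 to 14.3 in Ly6C tumor, 3.62 to 4.74 in Ly6G spleen and 11.5 to 15.6 in Ly6G tumor. Strand cannot separate reads in bases shared with Rbm15b. Without knowing whether the counting used strand, those shared with Dcaf1 cannot be told apart either. The part of these genes in the Manf values was not tested.

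The DNAJ cochaperones, which hand clients to BiP, did not follow it. Dnajb11 (ERdj3) was at 32.6, 36.4 and 30.7 FPKM in Ly6C spleen and 21.0, 19.2 and 23.0 in tumor, and at 22.6, 21.8 and 22.0 in Ly6G spleen and 16.6, 17.9 and 18.7 in tumor. It fell by 0.64 on the log2 scale in Ly6C and by 0.31 in Ly6G. The fall in Ly6G turned to 0.02 on the TPM scale. Its limma adjusted p was 0.056 without Ly6G spleen 1 and 0.073 without Ly6G tumor 1, with changes of -0.29 and -0.26. Dnajc3 (p58IPK), which also restrains PERK, fell from 12.6, 15.9 and 14.6 to 9.44, 9.97 and 11.8 FPKM in Ly6C (-0.43 ± 0.13, limma adjusted p = 0.0111) and was at -0.10 ± 0.13 in Ly6G (limma adjusted p = 0.514). Dnajb9 (ERdj4), a repressor of IRE1, ranged from 14.8 to 23.7 FPKM and passed in no comparison. Sdf2l1, a partner of Dnajb11, was at 45.0, 61.5 and 32.8 FPKM in Ly6C spleen and 39.9, 32.9 and 38.5 in tumor, which overlapped; with median-of-ratios factors it was lower (-0.54, limma adjusted p = 0.0339). In Ly6G it rose from 9.52, 9.49 and 13.8 to 24.7, 23.4 and 34.7 FPKM (1.26 ± 0.23, limma adjusted p = 0.000333).

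Hsp90b1 (Grp94), the ER member of the Hsp90 family and usually an abundant ER protein, was listed at 1.19 to 3.13 FPKM in 11 libraries and at 98.1 in Ly6C tumor 3. In limma it passed in no comparison (tumor against spleen 1.62 ± 0.95 in Ly6C, adjusted p = 0.138, and 0.45 ± 0.95 in Ly6G, adjusted p = 0.677). Without Ly6C tumor 3 the Ly6C change was 0.03 (adjusted p = 0.854), and the Ly6G change of 0.45 passed (adjusted p = 0.0123). Without Ly6C tumor 2 the Ly6C change was 2.48 (adjusted p = 0.0335). A second entry, Gm25745, annotated as a miRNA gene of 133 bases (chr10:86705316-86705448), lies inside Hsp90b1 (chr10:86690209-86705509) near its 5′ end on the same strand. Gm25745 was listed at 77.1, 106 and 88.9 FPKM in Ly6C spleen, 166, 186 and 65.6 in Ly6C tumor, 71.4, 75.5 and 79.3 in Ly6G spleen and 152, 132 and 159 in Ly6G tumor. It was lowest in the library in which Hsp90b1 was high.

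The 2 entries have different lengths, so their sum has no exact meaning as an expression level and is given as a description. With the processed transcript Gm15344, which also lies inside, the sum was 80.1, 111 and 92.8 FPKM in Ly6C spleen, 169, 189 and 164 in Ly6C tumor, 73.0, 79.2 and 81.9 in Ly6G spleen and 156, 136 and 163 in Ly6G tumor. No tumor library overlapped spleen, and Ly6C tumor 3 lay beside the rest of its group. With summed entries, an alternative chosen after the data were seen, the change was 0.89 in Ly6C (limma adjusted p = 8.93e-05) and 0.95 in Ly6G (limma adjusted p = 5.29e-05). How reads were assigned between the entries was not tested.

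**Figure D3:**
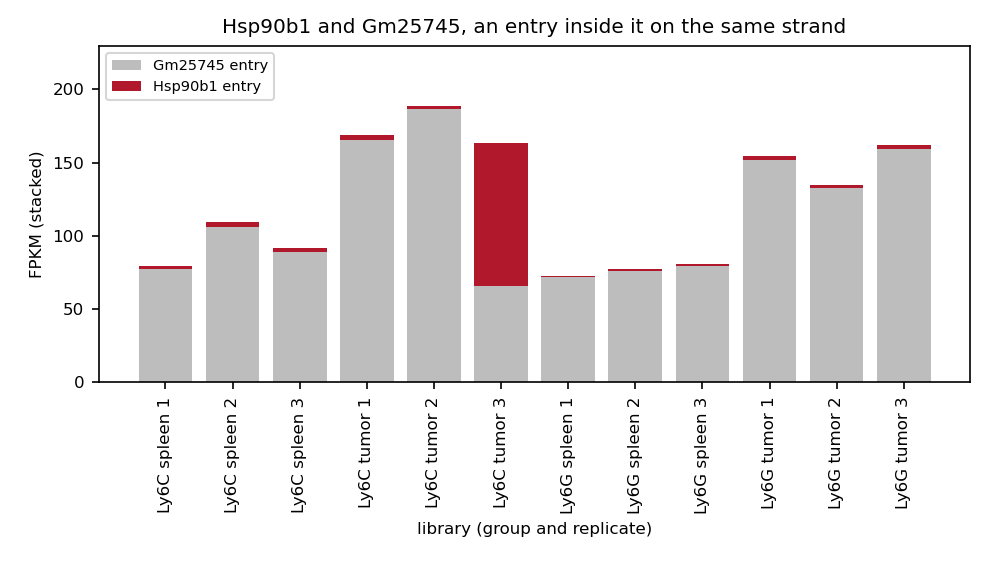
Stacked FPKM (vertical axis, from 0) of the Hsp90b1 entry and of Gm25745, which lies inside it on the same strand, in each of the 12 libraries (horizontal axis). Hsp90b1 is a thin cap of 1.19 to 3.13 FPKM in 11 libraries and 98.1 in Ly6C tumor 3, where Gm25745 is lowest at 65.6.

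Of the sensors, Ern1 (IRE1) differed between tissues, and Eif2ak3 and Atf6 passed in no comparison. Ern1 was at 5.56, 11.0 and 7.18 FPKM in Ly6C spleen against 11.0, 13.7 and 11.1 in tumor, which overlapped at their edges, and at 3.46, 4.03 and 4.32 in Ly6G spleen against 15.7, 14.1 and 14.2. It rose by 0.57 ± 0.19 (limma adjusted p = 0.0153) and 1.67 ± 0.19 (limma adjusted p = 6.79e-06). The rise in Ly6C did not pass in limma without Ly6C spleen 1 (0.37, adjusted p = 0.0711), without Ly6C tumor 2 (0.48, adjusted p = 0.0622) or with median-of-ratios factors (0.32, adjusted p = 0.0743). Eif2ak3 (PERK) was between 7.88 and 11.0 FPKM in all 12 libraries, and Atf6 between 3.73 and 7.63. With median-of-ratios factors Eif2ak3 was lower in tumor under both labels (-0.38 and -0.35, limma adjusted p = 0.014 and 0.0196). On the TPM scale all 3 sensors passed as higher in Ly6G tumor than in Ly6G spleen. All 3 also passed there as higher in Ly6C than in Ly6G spleen. The calls of Eif2ak3 and Atf6 thus depend on the scaling.

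Of the 5 entries for transcription factors and the feedback phosphatase subunit, 3 rose and 1 fell in Ly6C (60% and 20%, beside 46.2% and 30.5% of all genes). In Ly6G 5 rose (100%, beside 51.5%). Ddit3, which encodes the proapoptotic factor CHOP of the PERK arm, was at 9.18, 8.14 and 6.83 FPKM in Ly6C spleen, 15.3, 15.7 and 16.5 in Ly6C tumor, 14.1, 10.1 and 15.5 in Ly6G spleen and 28.6, 33.5 and 31.6 in Ly6G tumor. It rose by 0.90 ± 0.15 in Ly6C (limma adjusted p = 0.000171) and 1.19 ± 0.15 in Ly6G (limma adjusted p = 1.78e-05). Its second entry, inside the first, reached at most 1.75 FPKM. It reached 1 FPKM only in the 3 Ly6G tumor libraries and Ly6C spleen 2, so it was tested only through the group where it was high. It passed in Ly6G (0.57 ± 0.16, limma adjusted p = 0.00597) and not in Ly6C, which is no separate support for the first entry. The last bases of Ddit3 overlap Mars, a coding gene on the opposite strand. Mars was listed at 7.81 to 14.0 FPKM in spleen and 19.2 to 26.4 in tumor. Without knowing whether the counting used strand, reads in the shared bases cannot be told apart. Ppp1r15a (GADD34), the phosphatase subunit that restores translation, rose from 16.3, 26.4 and 16.7 to 35.8, 27.3 and 28.8 FPKM in Ly6C and from 22.4, 16.4 and 32.7 to 62.7, 65.1 and 62.4 in Ly6G. Its rise of 0.63 ± 0.23 in Ly6C (limma adjusted p = 0.0273) did not pass without Ly6C spleen 1 (0.51, adjusted p = 0.0982), Ly6C spleen 3 (0.53, adjusted p = 0.0901) or Ly6C tumor 1 (0.52, adjusted p = 0.0984), on the TPM scale (0.54, adjusted p = 0.0616) or with median-of-ratios factors (0.37, adjusted p = 0.127). In Ly6G its groups stood far apart (1.43 ± 0.23, limma adjusted p = 0.000146). The dissociation stress list, immediate-early and heat shock genes that can be induced while tissue is taken apart, rose in 9 of 11 genes and fell in 1 in the same Ly6G comparison, from 1487 to 2903 FPKM summed in spleen to 3417 to 3880 in tumor; its part in these values was not tested.

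Atf4, the factor upstream of Ddit3, was abundant in every group, at 99.6, 109 and 76.9 FPKM in Ly6C spleen, 209, 133 and 185 in Ly6C tumor, 97.7, 80.6 and 109 in Ly6G spleen and 175, 173 and 102 in Ly6G tumor. The Ly6G groups overlapped through Ly6G tumor 3. It rose by 0.87 ± 0.24 in Ly6C (limma adjusted p = 0.00569) and 0.61 ± 0.24 in Ly6G (limma adjusted p = 0.034). The rise in Ly6G did not pass in limma without Ly6G spleen 1 (0.64, adjusted p = 0.0617), Ly6G spleen 2 (0.50, adjusted p = 0.116), Ly6G tumor 1 (0.48, adjusted p = 0.124) or Ly6G tumor 2 (0.49, adjusted p = 0.12), or with median-of-ratios factors (0.10, adjusted p = 0.688).

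Xbp1, the factor of the IRE1 arm, was the one entry called in opposite directions. It was at 49.3, 61.7 and 50.4 FPKM in Ly6C spleen and 27.3, 34.0 and 32.3 in Ly6C tumor, with no overlap. In Ly6G it was at 33.1, 39.5 and 22.2 FPKM in spleen and 41.8, 43.6 and 45.7 in tumor. It fell by 0.77 on the log2 scale in Ly6C (SE 0.18, limma adjusted p = 0.00238) and rose by 0.49 ± 0.18 in Ly6G (limma adjusted p = 0.0284). The rise did not pass in limma without Ly6G spleen 3 (0.27, adjusted p = 0.116), Ly6G tumor 2 (0.49, adjusted p = 0.0598) or Ly6G tumor 3 (0.46, adjusted p = 0.0734), and it was -0.01 with median-of-ratios factors. XBP1 is also a defining factor of plasma cells. Of the 12 tested genes of the 14 in the plasma cell list, 10 fell and 1 (Sdc1) rose in Ly6C, and 11 fell and 1 (Sdc1) rose in Ly6G. The list summed to 164 to 323 FPKM in Ly6C spleen, 110 to 151 in Ly6C tumor, 359 to 800 in Ly6G spleen and 95.3 to 153 in Ly6G tumor. Of all 14 listed genes, 12 stayed under 1 FPKM in all 6 tumor libraries, so most of the tumor sums came from the rest of the list. Igha was listed at 0 in all 3 Ly6C tumor libraries. The part of these cells in the Xbp1 values was not tested.

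Of the 6 tested ERAD genes, Edem1, Derl1, Derl2 and Herpud1 fell under both labels, and Sel1l and Syvn1 fell in Ly6C and did not pass in Ly6G. Edem1, the lectin that picks trimmed glycoproteins for disposal, was at 47.3, 54.3 and 56.6 FPKM in Ly6C spleen and 12.6, 12.3 and 12.9 in Ly6C tumor, and at 27.0, 28.9 and 22.6 in Ly6G spleen and 15.8, 16.9 and 17.0 in Ly6G tumor. It fell by 1.98 (SE 0.11, limma adjusted p = 2.02e-08) in Ly6C and by 0.62 (SE 0.11, limma adjusted p = 0.000342) in Ly6G. Derl1, a channel component of the retrotranslocation complex, was at 33.8 to 39.7 FPKM in the 6 spleen libraries and 20.2 to 22.5 in the 6 tumor libraries. It fell by 0.72 and 0.73 (SE 0.10). Derl2 fell by 0.31 and 0.67 (SE 0.09). Derl3 was not tested and was lower in tumor in level, at 0.448 to 0.709 FPKM in the spleen libraries and 0.0562 to 0.164 in the tumor libraries.

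Herpud1, an adaptor of the ERAD ligase that is itself strongly induced by ER stress, was at 25.4, 30.2 and 26.2 FPKM in Ly6C spleen against 17.3, 17.1 and 17.5 in tumor, and at 22.2, 22.2 and 26.6 against 16.6, 19.7 and 14.5 in Ly6G. It fell by 0.62 and 0.47 (SE 0.13), the latter not passing on the TPM scale (-0.14, limma adjusted p = 0.401). Sel1l, the scaffold of the ligase, fell from 7.47, 9.48 and 9.33 to 4.99, 3.98 and 4.19 FPKM in Ly6C (-0.86 ± 0.13, limma adjusted p = 0.0001) and was at -0.27 ± 0.13 in Ly6G (limma adjusted p = 0.0861). Syvn1 (HRD1), the ligase, fell in Ly6C (15.8 ± 1.11 to 10.5 ± 0.859 FPKM, SD, n = 3; -0.55 ± 0.16, limma adjusted p = 0.00778) and had overlapping groups in Ly6G (12.4 ± 3.24 and 14.5 ± 1.27). Summed over the 7 ERAD genes, the level was 136 to 155 FPKM in Ly6C spleen, 67.0 to 71.6 in Ly6C tumor, 108 to 113 in Ly6G spleen and 75.5 to 81.1 in Ly6G tumor.

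Of the 3 translocon genes, 0 passed in Ly6C, where 46.2% of all genes rose and 30.5% fell. In Ly6G 1 rose, 1 fell and 1 did not pass (33.3% each, beside 51.5% rising and 24.7% falling of all genes). Sec61a1, the channel subunit, was at 22.1, 26.2 and 20.2 FPKM in Ly6C spleen and 24.4, 24.8 and 23.7 in tumor, and went from 12.6 in each of the 3 Ly6G spleen libraries to 19.9, 20.4 and 19.9 in tumor. It rose by 0.63 ± 0.10 in Ly6G (limma adjusted p = 0.000144), and by less with median-of-ratios factors (0.15, adjusted p = 0.131). Sec61b, the small tail-anchored subunit, was at 51.1, 61.5 and 47.2 FPKM in Ly6C spleen and 53.0, 59.8 and 68.0 in tumor, while it fell in Ly6G from 67.8, 54.5 and 68.6 to 36.4, 38.7 and 37.9 (-0.73 ± 0.14, limma adjusted p = 0.000461). These subunits of 1 channel thus went opposite ways in Ly6G. Ssr1, of the translocon-associated TRAP complex, was at 3.41, 3.47 and 3.48 FPKM in Ly6C spleen 1, Ly6C tumor 1 and Ly6G tumor 3 and at 8.30 to 11.2 in the other 9 libraries, and passed in no comparison.

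**Figure D4:**
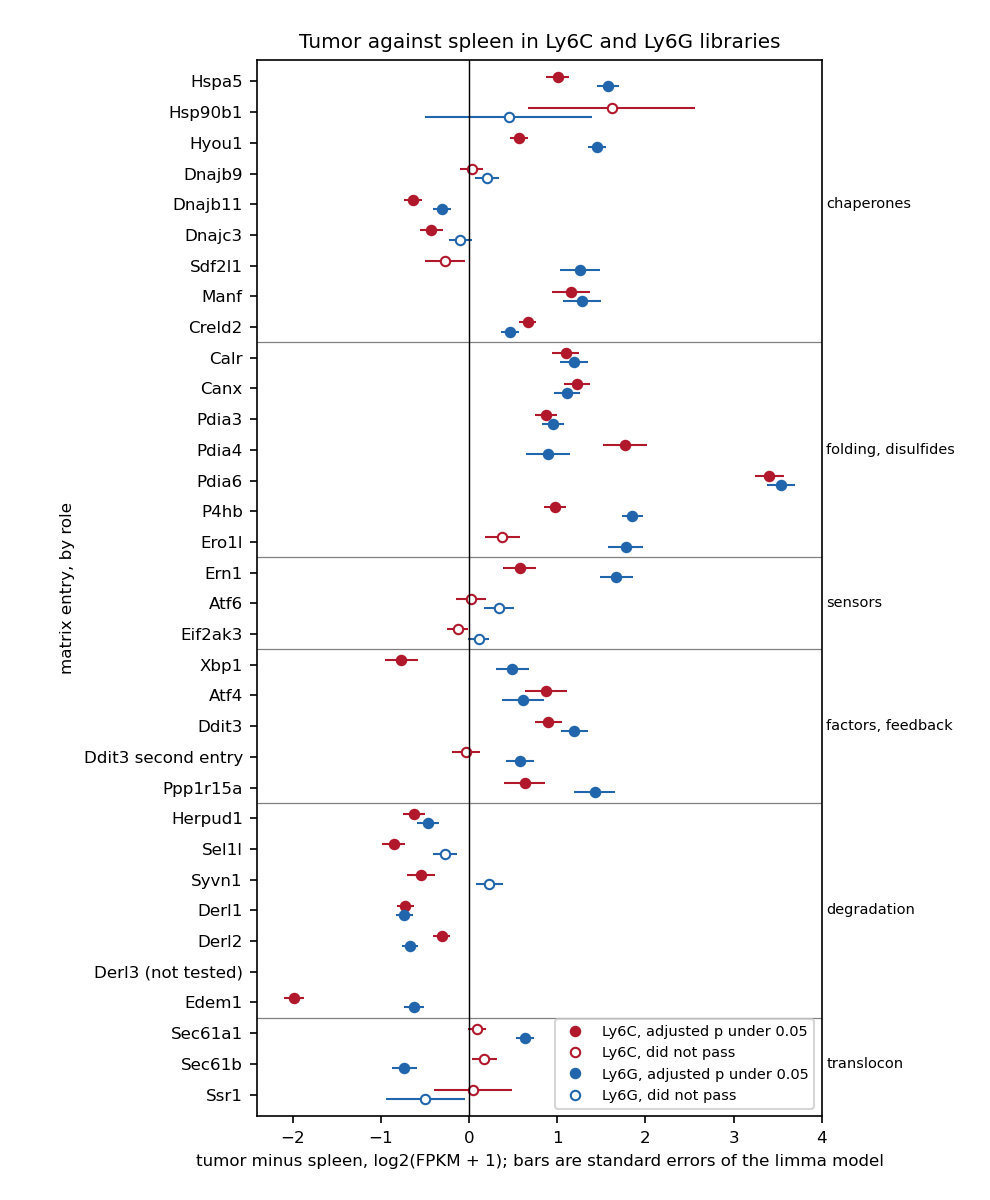
Tumor minus spleen in log2(FPKM + 1) for each entry (vertical axis, by role), Ly6C in red and Ly6G in blue, with standard errors of the limma model. Filled points passed and open points did not; Pdia6 is at 3.41 and 3.54, and all 6 tested degradation genes lie left of 0 in Ly6C.

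The tissue effect itself differed between the labels for 12 of the 33 entries. It was lower in Ly6C than in Ly6G for 11 (33.3%, beside 15.8% of all genes tested) and higher for 1 (3.03%, beside 6.02%). The median of this difference was -0.29 over the entries and -0.10 over all genes. On the TPM scale the median of all genes was -0.39 and with median-of-ratios factors 0.06, so how far the entries lean to Ly6G depends on the scaling. On the TPM scale 20 entries were lower and 0 higher, beside 4540 and 271 of all 13663 genes. With median-of-ratios factors 7 were lower and 3 higher, beside 1357 and 1795 of all 13578 genes. Without the 2 libraries of highest mitochondrial share, Ly6C tumor 3 and Ly6G tumor 3, 6 were lower, beside 1127 of all 13610 genes.

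The widest gaps were those of Sdf2l1 (-1.53 ± 0.32, limma adjusted p = 0.00744), Ero1l (-1.40 ± 0.28, 0.00594), Edem1 (-1.36 ± 0.16, 0.000619) and Xbp1 (-1.26 ± 0.26, 0.00677). Edem1 fell under both labels and by more in Ly6C, Ero1l and Sdf2l1 passed only in Ly6G, and Xbp1 went opposite ways. Ern1 (-1.10 ± 0.27, limma adjusted p = 0.0142), Hyou1 (-0.88 ± 0.14, 0.00231) and P4hb (-0.87 ± 0.17, 0.00572) rose under both labels and by more in Ly6G. Sec61b was the 1 entry with a higher effect in Ly6C (0.91 ± 0.20, limma adjusted p = 0.00836), and did not pass on the TPM scale (0.47, adjusted p = 0.089). Ern1 did not pass without Ly6C tumor 3 and Ly6G tumor 3 together (-1.07, limma adjusted p = 0.0683).

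The other 4 stood nearer the threshold. Hspa5 (-0.57 ± 0.18, limma adjusted p = 0.0444) did not pass without any one of 9 libraries (adjusted p up to 0.0934) and passed without Ly6C spleen 1, Ly6G spleen 2 or Ly6G tumor 3. Sel1l (-0.59 ± 0.19, adjusted p = 0.0469) likewise passed only without Ly6C spleen 1, Ly6C tumor 1 or Ly6G spleen 2, with an adjusted p of up to 0.102 otherwise. Syvn1 (-0.78 ± 0.22, limma adjusted p = 0.0292) was at 0.0501 to 0.067 without Ly6C spleen 2, Ly6C tumor 2, Ly6C tumor 3, Ly6G spleen 1, Ly6G spleen 2, Ly6G tumor 1 or Ly6G tumor 3. Sec61a1 (-0.54 ± 0.15, limma adjusted p = 0.0226) was at 0.0571 without Ly6C tumor 3.

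**Figure D5:**
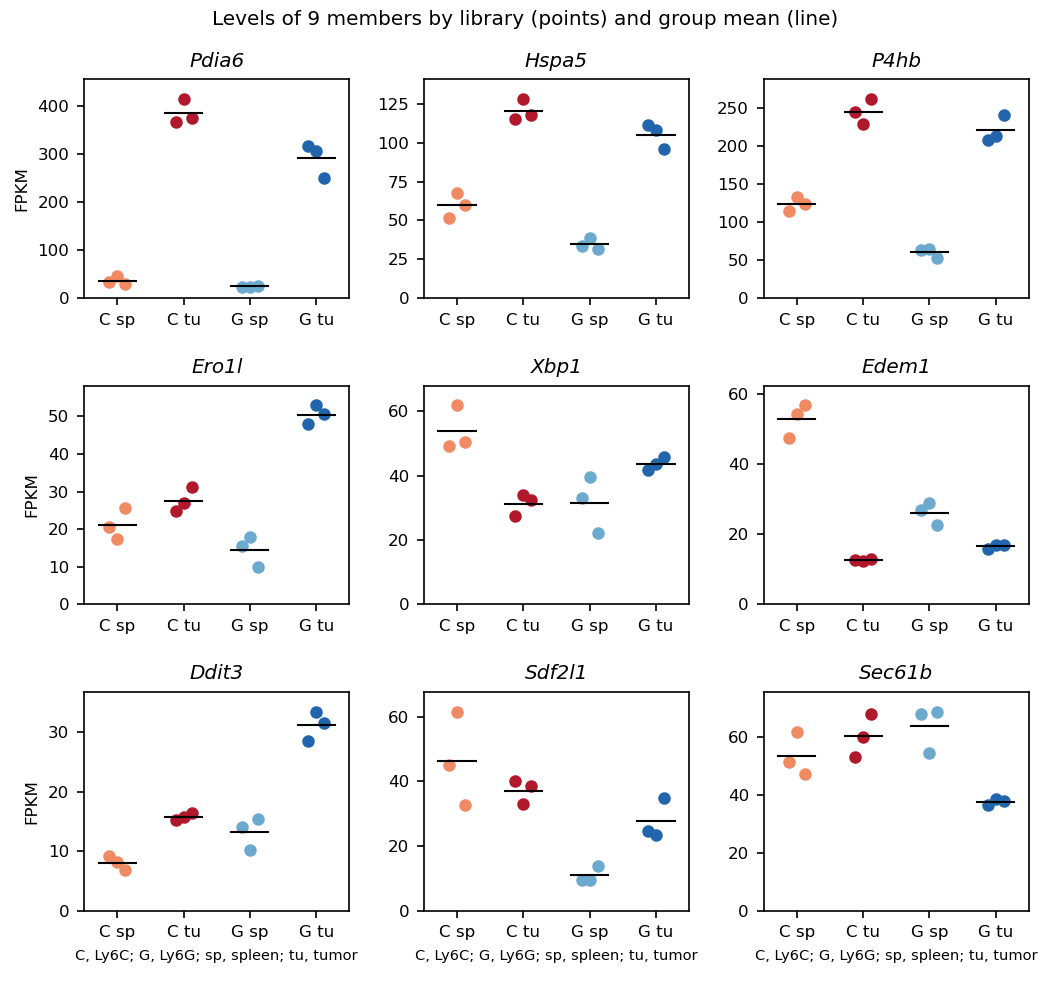
FPKM (vertical axes, from 0) of 9 genes in the 3 libraries of each group (points) with the group mean (line). Pdia6, Hspa5 and P4hb separate tumor from spleen under both labels, Xbp1 falls in Ly6C and rises in Ly6G, and Sec61b is lowest in Ly6G tumor at 36.4 to 38.7.

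In spleen, of the 33 entries 13 were higher in Ly6C than in Ly6G libraries and 2 lower (39.4% and 6.06%), beside 22.1% and 8.59% of all genes tested, and 18 did not pass. Markers of other cells differed in the same comparison: the tested genes of the B cell (10 of 10), T cell (6 of 6) and erythroid (8 of 8) lists were lower in Ly6C, as were 6 of 12 of the plasma cell and 6 of 14 of the neutrophil list, while 6 of 14 monocyte genes were higher. B cell genes summed to 269 to 411 FPKM in Ly6C spleen and 793 to 1361 in Ly6G spleen, T cell genes to 6.51 to 11.5 and 30.4 to 53.6, and erythroid genes to 309 to 1160.1 and 1459.9 to 4172. Their part in the member values was not tested. The higher ones included 6 of 9 chaperone entries, with Sdf2l1 highest at 46.4 ± 14.4 against 10.9 ± 2.50 FPKM (1.96 ± 0.23, limma adjusted p = 0.000208) and Hspa5 at 59.9 ± 8.01 against 34.7 ± 3.77 (0.77 ± 0.13, limma adjusted p = 0.00129). P4hb (1.03 ± 0.12), Edem1 (0.99 ± 0.11), Hyou1 (0.95 ± 0.10), Ern1 (0.81 ± 0.19), Sec61a1 (0.80 ± 0.10), Xbp1 (0.78 ± 0.18), Dnajb11 (0.56 ± 0.11) and Dnajc3 (0.53 ± 0.13) were higher too. Ddit3 was lower in Ly6C (8.05 ± 1.18 against 13.3 ± 2.78 FPKM, -0.64 ± 0.15, limma adjusted p = 0.00802), and did not pass on the TPM scale (-0.35, adjusted p = 0.087). Dnajc3 did not pass with median-of-ratios factors (0.32, limma adjusted p = 0.106). The counts depended on the scaling. On the TPM scale 23 entries were higher and 0 lower, beside 5398 and 551 of all 13663 genes, whose median was 0.33. With only the spleen groups fitted 8 entries were higher and 0 lower, beside 1838 and 748 of 13610 genes. Relative to the pan-leukocyte genes 1 entry was higher and 0 lower, beside 164 and 124 of 15219 genes.

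The remaining 4 calls in spleen stood nearer the threshold, and each was lost when certain libraries were left out in turn. Manf (0.67 ± 0.21, limma adjusted p = 0.0351) was at 0.125 without Ly6C spleen 2, 0.0658 without Ly6C spleen 3, 0.0828 without Ly6G spleen 1, 0.0797 without Ly6G spleen 2 and 0.0694 without Ly6G spleen 3. Pdia6 (0.54 ± 0.16, limma adjusted p = 0.026) was at 0.0727 without Ly6C spleen 2, where its change was 0.35, at 0.0715 without Ly6G spleen 1 and at 0.0741 without Ly6G spleen 2. Calr (0.47 ± 0.15, limma adjusted p = 0.0392) was at 0.28 (adjusted p = 0.111) without Ly6C spleen 2 and passed only without Ly6C spleen 1, Ly6C spleen 3, Ly6C tumor 2 or Ly6C tumor 3. Derl2 was lower (-0.30 ± 0.09, limma adjusted p = 0.0328), with 0.0593 without Ly6C spleen 1, 0.0866 without Ly6C spleen 3, 0.0509 without Ly6C tumor 3, 0.0631 without Ly6G spleen 1 and 0.0999 without Ly6G spleen 3, and was at -0.03 on the TPM scale (limma adjusted p = 0.859). Ly6C spleen 2 was the highest of its group for, among others, Calr, Canx, Pdia4, Pdia6, Manf, Sdf2l1 and Xbp1.

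In tumor, 2 of 33 entries were higher in Ly6C than in Ly6G and 4 lower (6.06% and 12.1%), beside 5.8% and 8.7% of all genes tested. Relative to the pan-leukocyte genes, 25 were higher and 0 lower, beside 10202 and 302 of all 15219 genes tested then. Most genes thus moved the same way under that scaling. The 4 lower entries were both Ddit3 entries, Ppp1r15a and Ero1l, while Atf4 (0.24, limma adjusted p = 0.531) and Eif2ak3 (-0.03, limma adjusted p = 0.914) of the PERK arm did not pass. Ddit3 was at 15.3 to 16.5 FPKM in Ly6C tumor against 28.6 to 33.5 in Ly6G tumor (-0.94 ± 0.15, limma adjusted p = 0.0038). Its second entry (-0.57 ± 0.16, limma adjusted p = 0.0371) lies inside the first and met the expression filter only through Ly6G tumor. That call is therefore not separate support. Ppp1r15a was at 27.3 to 35.8 against 62.4 to 65.1 FPKM (-1.04 ± 0.23, limma adjusted p = 0.0172), and Ero1l at 24.7 to 31.1 against 48.1 to 52.9 (-0.85 ± 0.20, limma adjusted p = 0.0194). None of these overlapped. Sec61b (0.66 ± 0.14, limma adjusted p = 0.0132) and Creld2 (0.34 ± 0.10, limma adjusted p = 0.0468) were higher in Ly6C.

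Of these 6 calls in tumor, that of Ddit3 held without each library in turn. Ppp1r15a was at a limma adjusted p of 0.0636, 0.06, 0.0501 and 0.0531 without Ly6C tumor 2, Ly6C tumor 3, Ly6G tumor 2 and Ly6G tumor 3. Ero1l was at 0.0594, 0.0621, 0.056 and 0.0599 without Ly6C tumor 1, Ly6C tumor 2, Ly6G tumor 2 and Ly6G tumor 3. The second Ddit3 entry was at 0.0814 to 0.122 without any one tumor library other than Ly6G tumor 1. Sec61b was at 0.0576 without Ly6C tumor 3, and Creld2 at 0.0504 to 0.147 without any one library other than Ly6C spleen 2, Ly6G spleen 2 and Ly6G spleen 3. Without both Ly6C tumor 3 and Ly6G tumor 3, whose mitochondrial shares were the highest of the 12 libraries (7.88% of FPKM in the former), none of the 6 passed in limma, with adjusted p from 0.053 (Ddit3, -0.95) to 0.236 (Creld2, 0.33); that fit has 2 libraries in each tumor group.

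Other genes of the same pathways gave a wider view. Of 89 tested genes in 5 further lists, 47 rose and 20 fell in Ly6C (52.8% and 22.5%, beside 46.2% and 30.5% of all genes), and 55 rose and 16 fell in Ly6G (61.8% and 18%, beside 51.5% and 24.7%). Among 15 further folding and disulfide genes 11 rose under each label, with 3 falls in Ly6C and 2 in Ly6G. Gpx8, a peroxidase that draws on the disulfide isomerases, rose most (4.49 ± 0.10 and 4.05 ± 0.10), to means of 21.5 and 16.3 FPKM from spleen values listed at 0 in Ly6C and averaging 0.0446 in Ly6G, while Qsox1, a sulfhydryl oxidase, fell (-1.61 ± 0.21 and -1.12 ± 0.21). Among 23 translocon and signal peptidase genes 17 rose and 2 fell in Ly6C, and 15 rose and 2 fell in Ly6G, with Sec61a2, the second channel isoform, highest (2.42 ± 0.15 and 2.14 ± 0.15) and Sec11c, a signal peptidase subunit, lowest (-2.09 ± 0.10 and -2.44 ± 0.10).

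Of 13 further chaperone genes 6 rose and 3 fell in Ly6C (46.2% and 23.1%, beside 46.2% and 30.5% of all genes). In Ly6G 9 rose and 2 fell (69.2% and 15.4%, beside 51.5% and 24.7%). Sil1, an exchange factor of BiP, was highest (2.27 ± 0.24 and 2.18 ± 0.24), Dnajb14 lowest in Ly6C (-0.93 ± 0.13) and Serp1, which stabilises membrane proteins, lowest in Ly6G (-1.03 ± 0.11). Of 18 further sensors, proteases and factors 8 rose and 6 fell in Ly6C (44.4% and 33.3%), near the shares of all genes. In Ly6G 12 rose and 5 fell (66.7% and 27.8%). Nupr1, a stress-inducible chromatin protein, led in Ly6C (2.54 ± 0.28) and Atf3, a target of ATF4, in Ly6G (3.13 ± 0.47), and the lowest were Ppp1r15b, the constitutive counterpart of Ppp1r15a (-1.66 ± 0.13 in Ly6C), and Eif2ak1, the heme-regulated kinase (-1.24 ± 0.09 in Ly6G). Further ERAD genes were mixed, with 5 rises and 6 falls of 20 in Ly6C (25% and 30%) and 8 and 5 in Ly6G (40% and 25%). Erlec1, an ER lectin, rose by 1.28 ± 0.12 in Ly6C, Aup1, which recruits ubiquitin-conjugating enzyme, by 1.34 ± 0.15 in Ly6G, and Svip, an inhibitor of ERAD, fell under both labels (-2.17 ± 0.13 and -2.18 ± 0.13).

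The tissue effect differed between labels for 14 of these 89 genes, lower in Ly6C for 11 and higher for 3 (12.4% and 3.37%, beside 15.8% and 6.02% of all genes). These shares are below the background, and the genes are given as values only. The lower ones were Atf3 (-2.31), Bbc3, the CHOP target PUMA (-1.56), Atf6b (-0.95), Txndc11 (-0.89), Creb3l2 (-0.83), Ppp1r15b (-0.78), Rpn2 (-0.76), Herpud2 (-0.64), Dnajc1 (-0.63), Dnajb12 (-0.52) and Stt3b (-0.51), and the higher ones Erlec1 (0.63), Tmx1 (0.54) and Gpx8 (0.44). Bbc3 went opposite ways, as Xbp1 did (-0.77 ± 0.26 in Ly6C and 0.79 ± 0.26 in Ly6G).

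The genes with an ERSE in the window were not all higher in tumor. Of the 8 tested, 5 rose under both labels (Hspa5, Creld2, Calr, Canx and Pdia6), and 2 (Dnajc3 and Syvn1) fell in Ly6C. Their median change was 1.05 in Ly6C and 0.79 in Ly6G. Of the 18 genes with a window and no ERSE, 7 rose and 6 fell in Ly6C. In Ly6G 9 of them rose and 5 fell. Their medians were 0.04 in Ly6C and 0.35 in Ly6G. Among all genes tested, 46.2% rose and 30.5% fell in Ly6C, and 51.5% rose and 24.7% fell in Ly6G. Of the 6 genes with no window, 2 rose and 1 fell in Ly6C, and 4 rose and 1 fell in Ly6G. Their medians were 0.24 and 0.96. The 0.79 of the genes with an ERSE in Ly6G counts Hsp90b1 at its listed change of 0.45 ± 0.95, which did not pass. With summed entries Hsp90b1 rose under both labels, so the order of 0.79 and 0.96 depends on that entry. Both genes with an ERSE-II, Dnajb11 and Herpud1, fell under both labels, where the fall of Dnajb11 in Ly6G turned to 0.02 on the TPM scale. These are descriptions of small sets and were not tested.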

How the data were processed

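The authors deposited 1 matrix of FPKM values for all genes and 12 libraries. Per the submitters' processing notes, the tools were featureCounts 1.5.0-p3 and HISAT2 2.0.5, with the GRCm38 build; the strand setting of the counting and the FPKM tool are not given there. Entries of assembled loci (570) were left out. Symbols and coordinates came from GENCODE M21 (GRCm38), promoters from RefSeq (GRCm38.p6).

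The 13610 genes that reached 1 FPKM in 3 or more libraries were fitted as log2(FPKM + 1) with 4 group means in limma 3.58.1 (R 4.3.3, trend of variance on mean, 8 residual and 3.4 prior degrees of freedom), two-sided, with Benjamini-Hochberg adjustment over all genes tested, for 5 comparisons. The script was tested on simulated data. A fold on this scale understates changes of low genes. The members and lists were chosen with earlier results of these data known. All 33 members could be named; of other pathway genes, those with the largest passing rise and fall of a list in each tissue comparison and those passing in the difference between labels; of marker lists, up to 3 of highest mean, with Epcam, Igha, Ly6g, Ly6c2 and Sdc1 added after their values were seen. Total FPKM per library was 331681 to 449309, and r within groups 0.970 to 0.986. Python 3.11.15, pandas 2.3.3, numpy 2.4.6 and matplotlib 3.10.9 made tables and figures.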

Additional observations from a re-analysis of the deposited data

Results flagged for a closer look

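For 12 entries a test of the difference itself found that tumor against spleen differed between Ly6C and Ly6G libraries (limma interaction, log2, Ly6C minus Ly6G, 3 libraries a group). The difference was -1.53 for Sdf2l1, -1.40 for Ero1l, -1.36 for Edem1, -1.26 for Xbp1, -1.10 for Ern1, -0.88 for Hyou1, -0.87 for P4hb, -0.78 for Syvn1, -0.59 for Sel1l, -0.57 for Hspa5, -0.54 for Sec61a1 and 0.91 for Sec61b. The adjusted p of the 12 ranged from 0.000619 (Edem1) to 0.0469 (Sel1l). The 3 tumor libraries of each label also differed in pan-leukocyte sum (183 to 366 FPKM in Ly6C, 446 to 767 in Ly6G) and in the keratin-positive list (1353 to 1579 and 789 to 1123), and the part of these in the differences was not tested.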

How the results depend on the processing

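Among the 33 entries tested, the counts of rises and falls between tissues held within 1.5 times under all settings but 1: relative to the pan-leukocyte genes, 33 rose and 0 fell in both Ly6C and Ly6G. In spleen, entries higher in Ly6C were 23 on the TPM scale, 8 with only the 2 groups compared and 1 relative to the pan-leukocyte genes; those lower were 1 with a filter at 5 FPKM or without both libraries of highest mitochondrial share, 0 on the TPM scale, with only the 2 groups or relative to the pan-leukocyte genes, and 4 with median-of-ratios factors. In tumor, entries higher in Ly6C were 1 on the TPM scale, with quantile normalization or with the replicate block, 5 with median-of-ratios factors or only the 2 groups, 8 with array weights, 0 without both mitochondrial libraries and 25 relative to the pan-leukocyte genes; those lower were 0 without both mitochondrial libraries or relative to the pan-leukocyte genes and 7 with only the 2 groups. For the difference between labels, higher entries were 3 with median-of-ratios factors or array weights, 0 on the TPM scale, 2 with quantile normalization and 4 relative to the pan-leukocyte genes, and lower ones 20 on the TPM scale, 7 with size factors from medians of ratios, 6 without both mitochondrial libraries and 0 relative to the pan-leukocyte genes. All genes moved with the scaling too. Relative to the pan-leukocyte genes, 10202 of all 15219 were higher in Ly6C than in Ly6G tumor. On the TPM scale 5398 of all 13663 were higher in Ly6C than in Ly6G spleen. The causes were not tested. Leaving out each library in turn gave 1 to 3 entries lower in spleen, 0 to 6 higher and 1 to 7 lower in tumor, and 1 to 2 higher and 7 to 12 lower for the difference between labels, with no change of direction among called values.

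Of all calls over all genes, the share that were higher was 60.2% and 67.6% between tissues (Ly6C, Ly6G), 72.0% in spleen, 40.0% in tumor and 27.6% for the difference between labels. It was 57.5%, 76.4%, 90.7%, 6.97% and 5.63% for TPM, 51.2%, 51.0%, 46.7%, 53.6% and 57.0% with median-of-ratios factors, and 97.1% and 97.0% between tissues relative to the pan-leukocyte genes.

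Values changed sign under 2 scalings in Ly6G: Dnajb11 to 0.0238 on the TPM scale, and Creld2 to -0.0212, Eif2ak3 to -0.35 and Xbp1 to -0.0098 with median-of-ratios factors. The difference between labels for Derl1 was -0.42 on the TPM scale. Relative to the pan-leukocyte genes, the Ly6C tissue change turned to 2.84 for Dnajb11, 2.90 for Dnajc3, 3.24 for Sdf2l1, 3.12 for Eif2ak3, 2.75 for Xbp1, 1.62 for the second Ddit3 entry, 2.82 for Herpud1, 2.26 for Sel1l, 2.80 for Syvn1, 2.76 for Derl1, 2.52 for Derl2 and 1.49 for Edem1. The Ly6G change turned to 2.14 for Dnajb11, 2.18 for Dnajc3, 1.98 for Herpud1, 1.88 for Sel1l, 1.76 for Derl1, 1.32 for Derl2, 1.84 for Edem1, 1.80 for Sec61b and 1.75 for Ssr1. Ly6C against Ly6G in tumor turned to 0.74 for Dnajb9, 0.13 for Ero1l, 0.95 for Eif2ak3, 0.0317 for Ddit3 and 0.67 for Sel1l, and the difference between labels to 0.46 for Hspa5, 0.29 for Hyou1, 0.15 for P4hb, 0.0491 for Ern1, 0.38 for Sel1l, 0.22 for Syvn1 and 0.53 for Sec61a1.

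The labels do not say what a replicate number ties together. Of 18 same-numbered pairs of libraries 5 had deviations correlated over 0.1 (r from -0.36 to 0.28), and 5 of 12 libraries correlated best with their own number. With the replicate block, Creld2 in tumor (adjusted p = 0.0647), Manf in spleen (0.0571) and the difference for Sel1l (0.0593) no longer passed, and no other call of a member changed.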

Other observations

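Ssr1 fell into levels that the groups did not follow. Its values of 3.41, 3.47 and 3.48 FPKM were in Ly6C spleen 1, Ly6C tumor 1 and Ly6G tumor 3, and no other entry overlaps the gene in the annotation. Syvn1 contains a miRNA entry on its strand, Mir6988 (chr19:6051334-6051392), listed at 0.531 to 8.11 FPKM; with both summed, an alternative chosen after the data were seen, Syvn1 was higher in Ly6C than in Ly6G spleen (0.51, limma adjusted p = 0.0111) and lower in tumor (-0.45, limma adjusted p = 0.0393). Of the 34 entries, 16 overlap another entry of the annotation, 8 on the same strand and 13 on the opposite strand. For 4 of them, an overlapping coding gene on the opposite strand reached 1 FPKM. These were Dcaf1 over Manf, Mars over Ddit3, Mrpl49 over Syvn1 and Mis12 over Derl2. Mrpl49 was listed at 4.72 to 8.22 FPKM in spleen and 15.4 to 26.1 in tumor. The 34 entries held 0.272% to 0.351% of all FPKM in Ly6C spleen, 0.488% to 0.516% in Ly6C tumor, 0.170% to 0.186% in Ly6G spleen and 0.436% to 0.502% in Ly6G tumor.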
